A study of Mus musculus with 14 samples.

Results

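The signaling lymphocytic activation molecule (SLAM) receptors and their adaptor SAP were followed as 7 genes: Slamf1, Slamf6, Slamf7, Cd48, Cd84 and Ly9, which encode receptors, and Sh2d1a, which encodes SAP. They were chosen by symbol from the 27179 genes of the count table, and all 7 were present and passed the filter on low counts. SLAM receptors are immunoglobulin-type surface proteins of blood cells. Most of them bind the same receptor on a neighbouring cell, and their cytoplasmic tails carry a tyrosine switch motif to which the SH2 domain of SAP docks. SAP brings the kinase Fyn to the receptors and keeps phosphatases away from them. Loss of SAP in mice is known to leave T cells unable to hold lasting contacts with B cells, so that follicular helper T cells fail to sustain germinal centres.

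The libraries are bulk RNA from naive CD4 T cells of C57BL/6 mice, which were activated on plates coated with antibodies to CD3 and CD28, kept in culture for 3.5 days and sorted by flow cytometry. Th1 (5 libraries) was the T helper 1 condition, TfhA (4 libraries) the follicular helper condition with an antibody against TGF-β, and Tfh5 (5 libraries) the follicular helper condition with 5 ng/ml TGF-β. The sources used here do not give the cytokines of each medium, the markers used for sorting, or whether libraries came from separate mice or cultures, so p-values measure only the spread between these libraries. These are cells differentiated in a dish and are not follicular helper cells taken from a germinal centre.

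Library totals ran from 8805921 to 16108059 counts, and the members had between 62 counts (Slamf7 in a Tfh5 library) and 5660 counts (Cd48 in a Th1 library). CD4 T cell transcripts were abundant in all groups, with Cd4 at 460 ± 23.9 CPM (counts scaled to library size) in Th1, 399 ± 30.5 in TfhA and 547.5 ± 26.6 in Tfh5. Levels are CPM scaled by TMM, given as the mean and SD over the libraries of a group (n = 5, 4 and 5 in the order Th1, TfhA, Tfh5). Log2 fold changes carry ± SE, and adjusted p-values come from edgeR's quasi-likelihood test over 13075 genes. The 3 comparisons share groups pairwise, so the values of a member in them are not independent of each other. In bulk RNA, fewer cells that express a gene and less RNA per cell cannot be told apart.

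The family did not move as a unit across the 3 conditions. Slamf7 was high in Th1, lower in TfhA and nearly lost in Tfh5. Slamf6 and Cd84 were low in Th1, peaked in TfhA and lay between in Tfh5. Slamf1 was lower in Tfh5 than in the other groups. Sh2d1a had the opposite profile to Slamf6, with its lowest level in TfhA. Cd48 and Ly9 changed by less than 1.4-fold in every comparison.

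**Figure D1:**
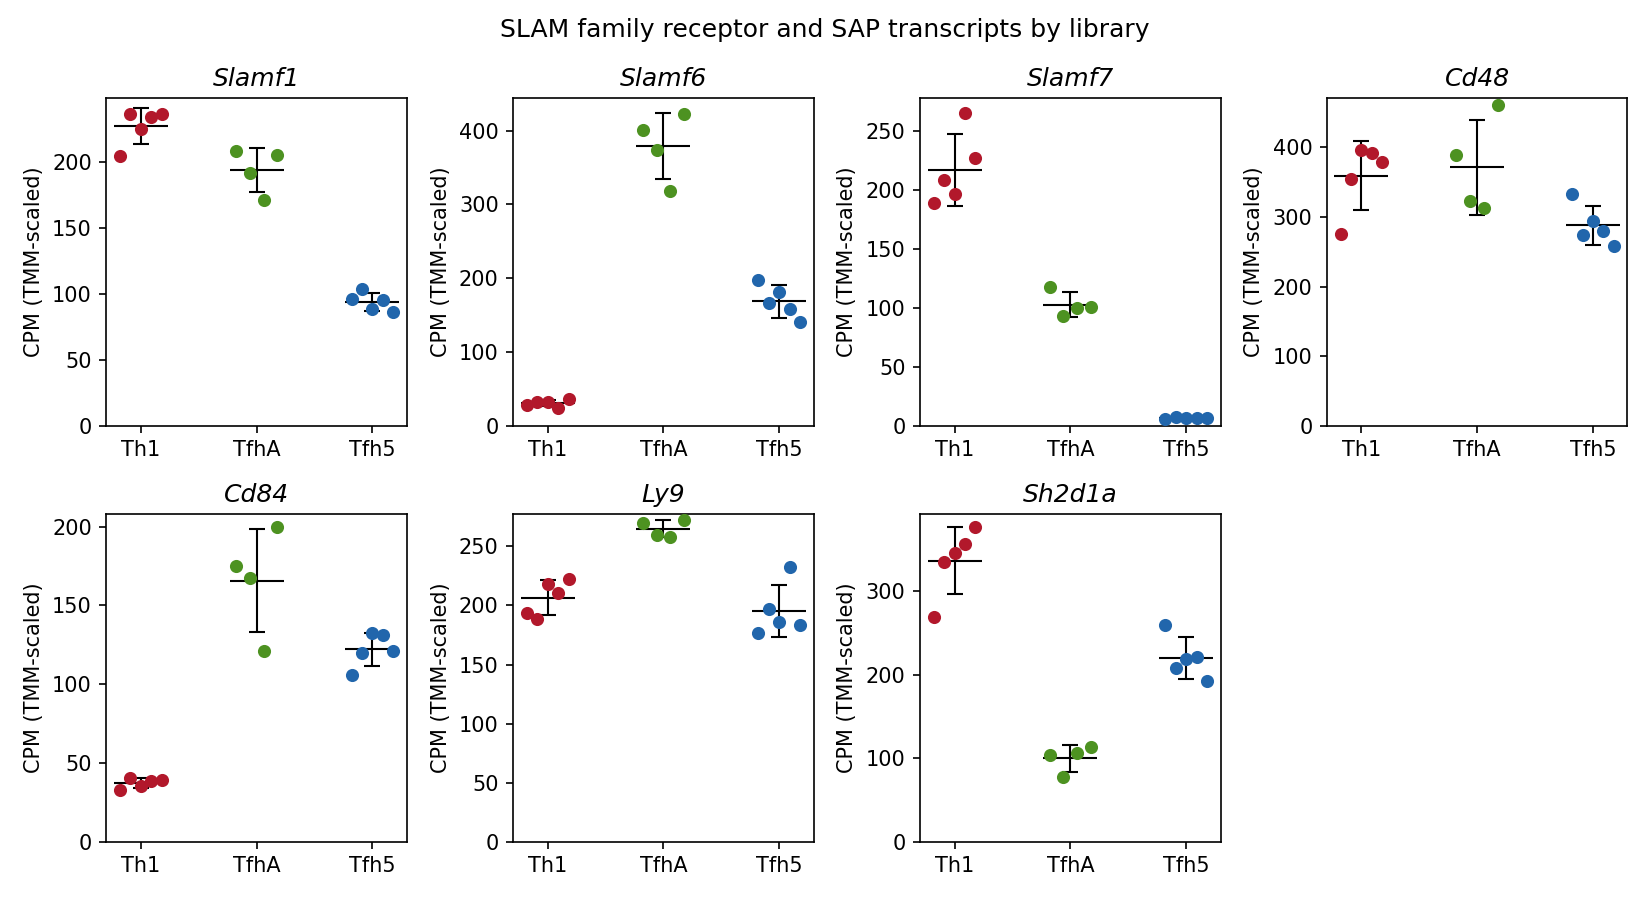
Transcript level of each member in each library (points, TMM-scaled CPM on a linear axis from 0), with the group mean (horizontal line) and SD (whiskers) over 5 Th1, 4 TfhA and 5 Tfh5 libraries. Slamf7 falls to 5.90 to 6.94 CPM in Tfh5, Slamf6 is at 24.5 to 36.3 CPM in Th1, and Sh2d1a is lowest in TfhA at 77.0 to 113 CPM.

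The receptors other than Cd48 share the switch motif in their tails, the kind of site to which SAP and its relatives dock, so its codons are shown here. The motif is threonine, any residue, tyrosine, any 2 residues, then valine or isoleucine. It was searched in frame in the longest complete coding sequence of each gene in the GENCODE M21 annotation (GRCm38). The codons of threonine, tyrosine and the closing valine are in capitals.
Slamf1, codons 286 to 291 of 343: ACTattTATgcccaaGTA
Slamf1, codons 333 to 338 of 343: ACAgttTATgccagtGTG
Slamf6, codons 293 to 298 of 351: ACTgtgTATgcacaaGTC
Slamf6, codons 317 to 322 of 351: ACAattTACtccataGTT
Cd84, codons 263 to 268 of 329: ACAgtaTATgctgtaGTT
Cd84, codons 298 to 303 of 329: ACCattTATtcctcaGTG
Slamf7, codons 300 to 305 of 335: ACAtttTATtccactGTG
Ly9 also held 2 matches, at codons 585 to 590 and 623 to 628 of 654. Each of these matches lies near the end of its coding sequence, where the cytoplasmic tail is encoded. The single match in Cd48, codons 105 to 110 of 240, lies in the extracellular part, because CD48 is anchored to the membrane by a lipid and has no tail. At least 1 match was present in 7.96% of 21504 genes and at least 2 in 0.61%, so the pair of matches in Slamf1, Slamf6, Cd84 and Ly9 is uncommon, whereas a single match is not. The 4 receptors with a pair did not share an expression profile.

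Slamf7, also called CRACC or CS1, is a receptor of NK cells, plasma cells and activated T cells that signals through EAT-2, a relative of SAP, where that adaptor is present. In Th1 its level was 189, 208, 197, 265 and 227 CPM in replicates 1 to 5. In TfhA it was 118, 93.2, 99.4 and 100.3 CPM in replicates 1, 2, 4 and 5, and in Tfh5 it was 5.90, 6.94, 6.42, 6.36 and 6.80 CPM. Every TfhA library lay below every Th1 library, and every Tfh5 library lay far below both. Slamf7 fell 15.8-fold from TfhA to Tfh5 (log2 fold change -3.98 ± 0.12, adjusted p = 1.6e-18), and it was 2.11-fold lower in TfhA than in Th1 (-1.08 ± 0.10, adjusted p = 5.84e-09). The difference between Tfh5 and Th1 was 33.4-fold (-5.06 ± 0.12, adjusted p = 8.33e-21). By absolute size, the change from TfhA to Tfh5 stood at the 96.9th percentile of all tested genes.

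Slamf6, also called Ly108, binds itself on opposing cells and recruits SAP. Th1 libraries had 27.6, 32.4, 32.7, 24.5 and 36.3 CPM. TfhA libraries had 401, 374, 318 and 423 CPM, and Tfh5 libraries 198, 166, 181, 158 and 140.3 CPM. The 3 groups did not overlap. Slamf6 was 12.4-fold higher in TfhA than in Th1 (log2 fold change 3.63 ± 0.12, adjusted p = 2.9e-17) and 5.50-fold higher in Tfh5 than in Th1 (2.46 ± 0.12, adjusted p = 1.85e-15). From TfhA to Tfh5 it fell 2.25-fold (-1.17 ± 0.11, adjusted p = 3.18e-09). The rise from Th1 to TfhA stood at the 98.6th percentile by absolute size among the tested genes, the most extreme place of any member in that comparison.

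Cd84, a receptor that binds itself and takes part in adhesion between T and B cells, had a similar profile to Slamf6 with a smaller range. Its level was 32.7, 40.8, 35.2, 38.4 and 39.4 CPM in Th1, 175, 167, 121 and 199.5 CPM in TfhA, and 106, 119.7, 132, 131 and 121 CPM in Tfh5. All 9 libraries of the follicular helper conditions lay above all Th1 libraries, while TfhA and Tfh5 overlapped because TfhA replicate 4 lay within the Tfh5 range. Cd84 was 4.44-fold higher in TfhA than in Th1 (log2 fold change 2.15 ± 0.12, adjusted p = 2.34e-13) and 3.27-fold higher in Tfh5 than in Th1 (1.71 ± 0.11, adjusted p = 1.37e-12). Despite the overlap it was 1.36-fold lower in Tfh5 than in TfhA (-0.44 ± 0.11, adjusted p = 0.00185). The ratio of Cd84 to Slamf6 counts ran from 1.08 to 1.57 over the Th1 libraries, from 0.381 to 0.471 over those of TfhA and from 0.536 to 0.864 over those of Tfh5, without overlap, so Slamf6 had the wider range of the pair.

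Slamf1, also called CD150, binds itself and is the founding member of the family. Its levels were 205, 237, 226, 234 and 237 CPM in Th1 and 208, 192, 171.5 and 206 CPM in TfhA. In Tfh5 they were 96.5, 103.6, 88.9, 95.2 and 86.2 CPM. The Tfh5 libraries lay below all others, and TfhA overlapped Th1. Slamf1 was 2.07-fold lower in Tfh5 than in TfhA (log2 fold change -1.05 ± 0.09, adjusted p = 2.49e-10) and 2.42-fold lower than in Th1 (-1.28 ± 0.085, adjusted p = 1.56e-12). The 1.17-fold lower level of TfhA against Th1 passed narrowly (-0.23 ± 0.09, adjusted p = 0.0378), and this call was lost when any of 6 libraries was left out (Th1 replicate 2, 3, 4 or 5, TfhA replicate 2 or 4), at adjusted p up to 0.128.

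Ly9, also called CD229 or SLAMF3, is a receptor that binds itself and is widely present on T and B cells. It was measured at 193, 189, 218, 210.2 and 222 CPM in Th1. TfhA libraries had 269.8, 259.9, 258 and 272 CPM, and Tfh5 libraries 177, 197, 186, 232 and 184 CPM. TfhA was above both other groups without overlap, and Th1 and Tfh5 overlapped. The differences were small, 1.28-fold from Th1 to TfhA (log2 fold change 0.36 ± 0.09, adjusted p = 0.00217) and 1.36-fold from TfhA to Tfh5 (-0.44 ± 0.09, adjusted p = 0.000176). Between Tfh5 and Th1 the difference did not pass (-0.08 ± 0.09, adjusted p = 0.407).

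Cd48 encodes a lipid-anchored member of the family that serves as ligand of CD2 and of the receptor 2B4. The Th1 libraries had 276, 354.5, 396, 393 and 379 CPM, those of TfhA 389, 323, 313 and 461 CPM, and those of Tfh5 333, 274, 294, 280 and 258 CPM. All 3 groups overlapped. Cd48 was 1.29-fold lower in Tfh5 than in TfhA (log2 fold change -0.37 ± 0.12, adjusted p = 0.00999), and this call was lost without TfhA replicate 5, the highest library (-0.24 ± 0.12, adjusted p = 0.0874). It was 1.25-fold lower in Tfh5 than in Th1 (-0.32 ± 0.11, adjusted p = 0.0146). TfhA and Th1 differed by 0.05 ± 0.12 on the log2 scale (adjusted p = 0.779).

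Sh2d1a lies on the X chromosome, apart from the receptors (GRCm38, 42502565 to 42522097). SAP transcript was highest in Th1, at 269, 335, 346, 356 and 376 CPM. In TfhA it was 103.6, 77.0, 106 and 113 CPM, and in Tfh5 259.5, 207.5, 219, 221 and 193 CPM. No groups overlapped, with Tfh5 between Th1 and TfhA. Sh2d1a rose 2.20-fold from TfhA to Tfh5 (log2 fold change 1.14 ± 0.12, adjusted p = 8.68e-09), as the only member higher in Tfh5. It was 3.37-fold lower in TfhA than in Th1 (-1.75 ± 0.12, adjusted p = 1.42e-11) and 1.53-fold lower in Tfh5 than in Th1 (-0.61 ± 0.11, adjusted p = 2.13e-05).

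Counted by comparison, 6 of 7 members were lower and 1 was higher in Tfh5 than in TfhA. Of all tested genes, 30.1% were lower and 27.4% higher by the same rule (57.5% in either direction). A call by itself is therefore common among the tested genes. The groups did not overlap in 5 of 7 members, against 44.2% of all tested genes, and in 4 of these 5 Tfh5 was lower, against 23.4%. The members' median log2 fold change was -0.44, beside -0.01 for all tested genes. The comparison of TfhA with Th1 gave 3 members higher, 3 lower and 1 not passed, beside 23.2% and 21.6% of all tested genes (44.8% in either direction), with a median of 0.05 beside 0.03. There the groups did not overlap in 5 members, against 38.1% of all tested genes, and TfhA was lower in 2 of them (Slamf7 and Sh2d1a), against 18.7%. Between Tfh5 and Th1, 2 members were higher, 4 lower and 1 did not pass, beside 31.5% and 33% of all tested genes (64.6% in either direction), with a median of -0.32 beside -0.02. Groups did not overlap in 5 members, against 50.2%, and Tfh5 was lower in 3 of them (Slamf1, Slamf7 and Sh2d1a), against 26.5%. A change of at least 2-fold was called for Slamf1, Slamf6 and Slamf7 (lower) and Sh2d1a (higher) between Tfh5 and TfhA, beside 13.1% and 10.6% of all tested genes. Between TfhA and Th1 such a change was called for Slamf6 and Cd84 (higher, beside 5.37%) and for Slamf7 and Sh2d1a (lower, beside 8.29%). Between Tfh5 and Th1 it was called for Slamf6 and Cd84 (higher, beside 12.6%) and for Slamf1 and Slamf7 (lower, beside 15.3%).

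The 6 receptor genes lie next to one another in a cluster of 360.3 kb on chromosome 1 (GRCm38, 171588613 to 171948958), in the order Ly9, Slamf7, Cd48, Slamf1, Cd84 and Slamf6. Ly9 and Slamf7 are on the minus strand and the others on the plus strand. Between Th1 and TfhA, neighbours in the cluster differed in direction: Slamf7 fell while Ly9 on one side rose and Cd48 on the other did not pass. From TfhA to Tfh5 all 6 receptor genes fell, by a log2 fold change of -0.37 (Cd48) to -3.98 (Slamf7), beside 30.1% of all tested genes. The members that rose most from Th1 to TfhA, Cd84 and Slamf6, are the last 2 of the row. The window from 100 kb before to 100 kb after the cluster holds 21 annotated genes, of which 10 are in the count table and 8 were tested. Of the family genes in this window, Cd244a, which encodes 2B4, had 12 counts over all 14 libraries.

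**Figure D2:**
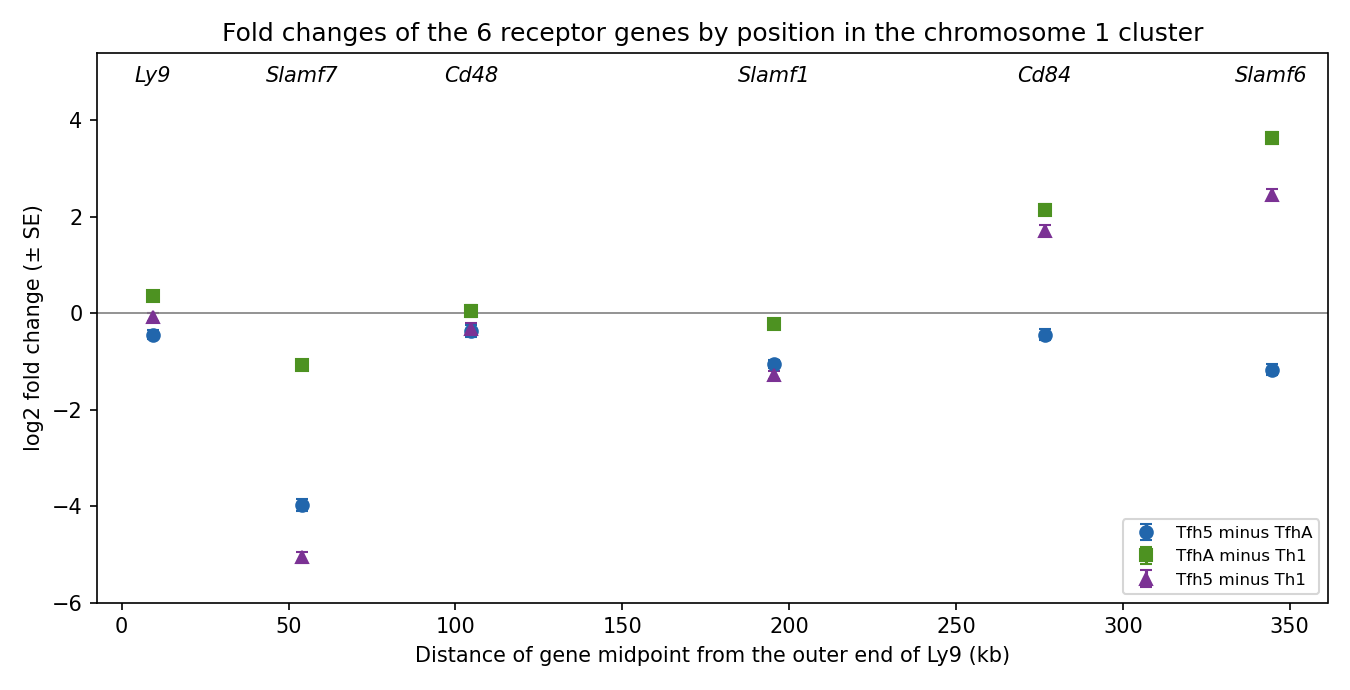
Log2 fold change (points, whiskers ± SE) of the 6 receptor genes in the 3 comparisons, plotted at the distance of each gene's midpoint from the outer end of Ly9 in kb. Slamf7 is below 0 in each comparison, whereas Cd84 and Slamf6 at the right end are above 0 in both comparisons with Th1. For Tfh5 against TfhA all 6 genes are below 0.

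Promoter sequences were set beside these profiles for Slamf6 and Cd84, which had similar profiles, and for Slamf7, which had the largest change. Each is the RefSeq sequence of the 250 bases before an annotated start (GRCm38.p6), 5′ to 3′ on the gene's strand, with motif matches in capitals. The Slamf7 window lies inside the annotated gene (171632403 to 171653037) and not at its outer 5′ end. The bases just after the start were found in 3 GENCODE transcripts of Slamf7, 1 of Cd84 and 0 of Slamf6, so the Slamf6 start was not matched there.
Slamf6, plus strand, chr1:171917212-171917461: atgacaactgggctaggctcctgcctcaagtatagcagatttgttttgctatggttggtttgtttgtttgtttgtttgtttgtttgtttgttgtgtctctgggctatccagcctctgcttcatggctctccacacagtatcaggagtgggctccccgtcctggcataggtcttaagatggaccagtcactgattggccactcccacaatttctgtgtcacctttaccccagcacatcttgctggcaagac
Cd84, plus strand, chr1:171839447-171839696: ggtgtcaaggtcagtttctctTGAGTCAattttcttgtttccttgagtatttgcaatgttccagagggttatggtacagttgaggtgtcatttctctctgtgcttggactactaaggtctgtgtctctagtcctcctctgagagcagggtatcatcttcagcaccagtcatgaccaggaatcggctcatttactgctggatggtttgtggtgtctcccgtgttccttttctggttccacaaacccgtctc
Slamf7, minus strand, chr1:171649000-171649249: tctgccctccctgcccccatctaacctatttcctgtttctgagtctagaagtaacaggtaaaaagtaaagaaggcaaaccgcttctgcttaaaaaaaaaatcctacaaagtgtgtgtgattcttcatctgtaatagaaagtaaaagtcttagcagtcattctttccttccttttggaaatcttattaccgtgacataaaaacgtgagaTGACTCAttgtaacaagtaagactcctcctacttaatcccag
The motifs searched on both strands were GGTGTGA (a T-box element), CTTTGA (TCF), TGANTCA (AP-1) and CAGGAAG (ETS). The AP-1 letters were present in the Slamf7 window, 42 to 36 bases before the start (positions -42 to -36), and in the Cd84 window (-229 to -223), and in 6.75% of 32851 windows of the same length. The windows of Slamf6, Cd84 and Slamf7 held none of the other 3 motifs, which were present in 3.33%, 13.83% and 10.82% of all windows. Of the windows not shown, that of Cd48 held the T-box letters (-73 to -67) and the TCF letters (-168 to -163). That of Slamf1 held the ETS letters (-50 to -44). The Cd48 start was matched in 0 GENCODE transcripts and the Slamf1 start in 1. A match or its absence describes these letters in this window only.

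Levels of different genes were compared per length, as CPM per kilobase of merged exons. On this scale Cd48 was the most abundant member in each group (302 ± 41.8 in Th1, 312 ± 57.7 in TfhA and 242 ± 23.9 in Tfh5), followed by Ly9 (62.5 ± 4.50, 80.1 ± 2.18 and 59.0 ± 6.69). In Th1 the order went on with Sh2d1a (61.1 ± 7.35), which did not differ from Ly9 beyond the spread, then Slamf7 (47.4 ± 6.64), Slamf1 (37.0 ± 2.20), Cd84 (5.95 ± 0.526) and Slamf6 (2.83 ± 0.428). In TfhA the level per length was 35.0 ± 4.17 for Slamf6, 31.6 ± 2.74 for Slamf1, 26.4 ± 5.21 for Cd84, 22.4 ± 2.30 for Slamf7 and 18.2 ± 2.86 for Sh2d1a, and each of these overlapped the next in its range over libraries. In Tfh5 Sh2d1a followed Ly9 (40.0 ± 4.51), and was followed without overlap by Cd84 (19.5 ± 1.70), Slamf6 (15.6 ± 2.03) and Slamf1 (15.3 ± 1.11), of which Slamf6 overlapped both others in its range, with Slamf7 last and apart (1.42 ± 0.0888). With the longest annotated transcript or the longest protein-coding transcript as length, none of the 3 orders stayed the same throughout, but Cd48 stayed first in each group, Slamf6 last in Th1 and Slamf7 last in Tfh5.

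As a share of the summed level per length of the 6 receptors, Slamf7 made up 10.4% ± 1.07 in Th1, 4.46% ± 0.573 in TfhA and 0.404% ± 0.0507 in Tfh5. Slamf6 made up 0.623% ± 0.0988, 6.91% ± 0.403 and 4.40% ± 0.328. Cd84 accounted for 1.31% ± 0.122 in Th1, against 5.18% ± 0.565 in TfhA and 5.55% ± 0.673 in Tfh5. Cd48 had the largest share in every library, from 58.7% to 72.6%. These shares depend on the length used: with the longest annotated transcript Slamf6 made up 1.06%, 10.98% and 7.18% and Cd84 2.15%, 7.96% and 8.73% on average, and with the longest protein-coding transcript Cd48 made up 49.3% in TfhA. The makeup of the minor receptors therefore differed between groups while the leading receptor was the same. The sum itself was 458 ± 51.3 in Th1, 508 ± 71.1 in TfhA and 353 ± 24.0 in Tfh5.

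**Figure D3:**
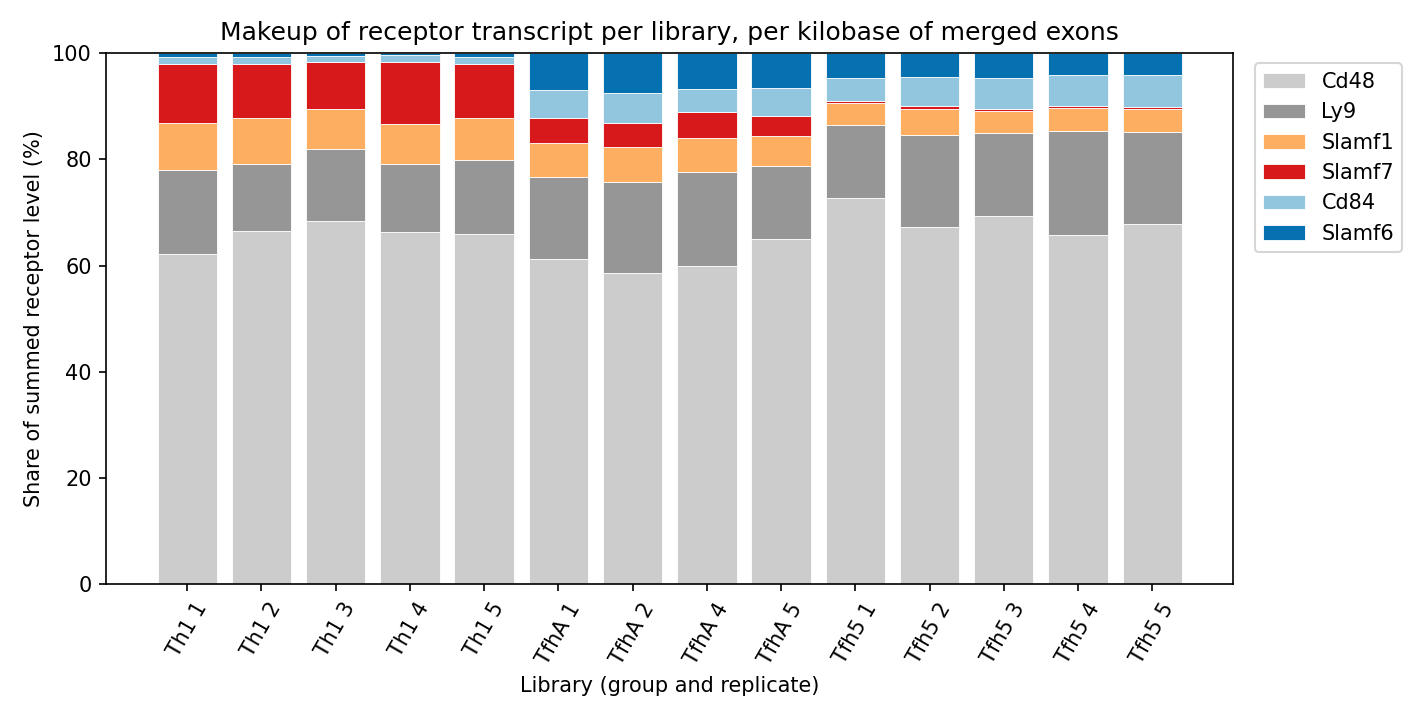
Share of each receptor in the summed receptor level per kilobase of merged exons, in percent, for each of the 14 libraries (stacked bars reaching 100%). Slamf7 makes up 10.4% on average in Th1 and 0.404% in Tfh5, and Slamf6 0.623% in Th1 and 6.91% in TfhA.

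Ratios of counts within a library do not depend on how libraries are scaled. The ratio of Slamf6 to Slamf7 had a median of 0.156 in Th1 (0.0924 to 0.167), 3.71 in TfhA (3.20 to 4.22) and 24.8 in Tfh5 (20.6 to 33.5). The order of this pair was thus reversed between Th1 and the follicular helper conditions, with no overlap between groups. The ratio of Sh2d1a to Slamf6 had a median of 10.4 in Th1 (9.75 to 14.5), 0.263 in TfhA (0.206 to 0.333) and 1.31 in Tfh5 (1.21 to 1.40). Transcript of the adaptor was thus scarcest, relative to this receptor, in the libraries where the receptor was most abundant. Set against all 6 receptors per length, Sh2d1a was at 13.3 ± 0.510 units per 100 receptor units in Th1, 3.60 ± 0.570 in TfhA and 11.3 ± 0.530 in Tfh5. The means were 24.1, 6.06 and 19.5 units with the longest annotated transcript and 50.7, 13 and 42.45 units with the longest protein-coding transcript, so the level depends on the length while TfhA was lowest with each.

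**Figure D4:**
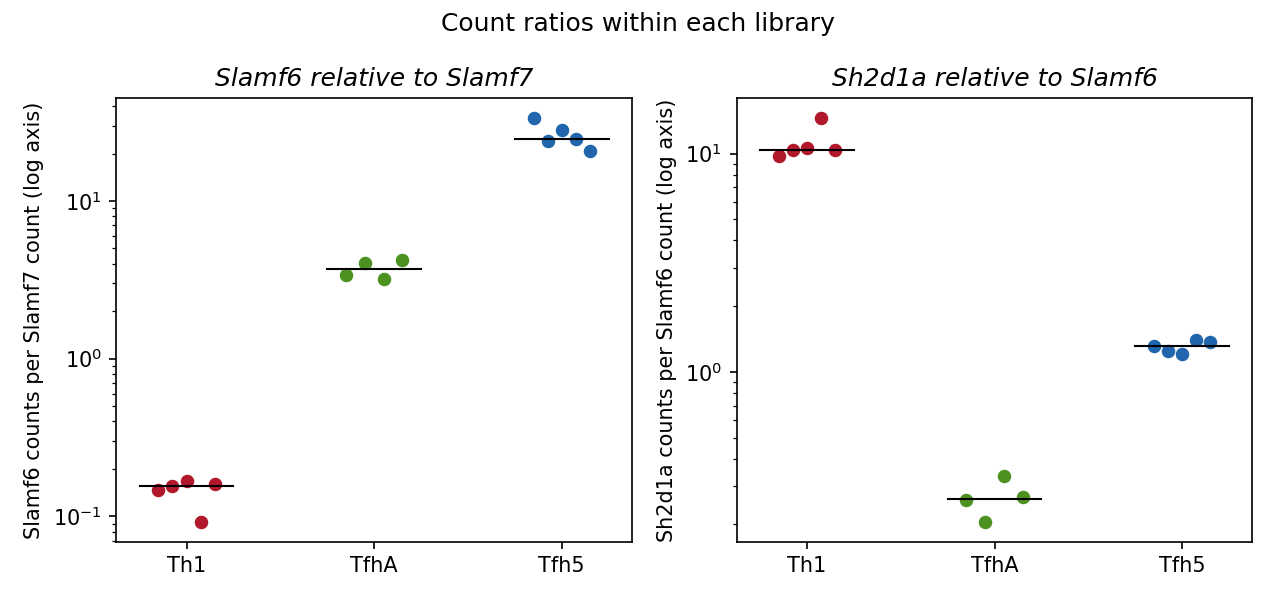
Counts of Slamf6 per count of Slamf7 (left) and of Sh2d1a per count of Slamf6 (right) in each library, on logarithmic axes, with the group median as a line. The Slamf6 to Slamf7 ratio is 0.0924 to 0.167 in Th1 and 20.6 to 33.5 in Tfh5, and the Sh2d1a to Slamf6 ratio is lowest in TfhA at 0.206 to 0.333.

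Likeness of profile was measured as the Pearson correlation of log2 CPM over the 14 libraries. These fall in 3 groups, so a high value mostly describes similar differences between groups. For members with small changes, spread within groups also enters, and the order of groups can differ. Members were left out of the search and are given after it. Among 9097 other genes, the 3 most like Slamf7 were Zeb2, a transcriptional repressor of effector T cells (r = 0.996), Gbp8, an interferon-induced GTPase (0.996), and Il12rb2, a chain of the interleukin-12 receptor (0.995). Il12rb2 had means of 2370 CPM in Th1, 794 in TfhA and 46.4 in Tfh5. For Sh2d1a they were Rbpj, the DNA-binding effector of Notch (0.980, with 390, 160 and 303 CPM), Ube2f (0.972) and Ctla2a (0.969). Those most like Slamf6 were Mab21l2 (0.985), Akr1c18 (0.972) and Asap1 (0.970), and those most like Cd84 were Evi2a (0.987), Nemp2 (0.983) and Sorl1, a sorting receptor (0.977). Fam162a (0.988), Ptpn13 and Gbp4 (0.987 each) were most like Slamf1. The values were lower for the members with small changes, at 0.914 to 0.924 for Cd48 (Tmem167, Eloc and Atp5c1) and 0.915 to 0.943 for Ly9 (Ddx10, Usp39 and Trit1). Tmem167 had its highest mean in Th1 (307, 295 and 236 CPM) and Cd48 in TfhA (359.6, 371.3 and 287.9 CPM). Among the members themselves, Slamf1 and Slamf7 had r = 0.988 and Slamf6 and Cd84 r = 0.976, so Slamf7 was as like Slamf1 as Fam162a was, and Cd84 was more like Slamf6 than Akr1c18 and Asap1 were.

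The remaining SLAM receptors and SAP relatives were low or nearly absent. Slamf8 had 333 counts over the Th1 libraries, 15 in TfhA and 1 in Tfh5, and Slamf9 18, 11 and 3. Slamf8, at 4.66 CPM in Th1, was called lower in TfhA than in Th1 (log2 fold change -3.72 ± 0.41, adjusted p = 6.92e-08). It was also called lower in Tfh5 than in TfhA (-3.63 ± 0.86, adjusted p = 0.000827). EAT-2, the adaptor that can serve Slamf7 in other cells, is encoded by Sh2d1b1, with 3 counts over all libraries, and Sh2d1b2 had none. These libraries thus held Slamf7 transcript with almost no transcript of that adaptor. Cd2, the T cell receptor for CD48, was 1.63-fold lower in TfhA than in Th1 (455 ± 47.8 against 742 ± 65.3 CPM, adjusted p = 8.9e-07) and 1.64-fold lower in Tfh5 than in Th1 (453 ± 19.3 CPM, adjusted p = 8.67e-08).

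Signalling partners of SLAM receptors and SAP formed a list of 16 genes, all tested. In Tfh5 against TfhA 8 rose and 2 fell, in TfhA against Th1 10 rose and 3 fell, and in Tfh5 against Th1 12 rose and 4 fell. Of all tested genes 27.4% rose and 30.1% fell in the first of these comparisons, 23.2% and 21.6% in the next, and 31.5% and 33% in the last. The list's medians were 0.34, 0.35 and 0.66, beside -0.01, 0.03 and -0.02 for all tested genes. Rasa1, a brake on Ras that is recruited below SLAM receptors, had 74.8 ± 10.3 CPM in Th1, 167 ± 33.4 in TfhA and 493 ± 28.8 in Tfh5, and the 6.60-fold difference between Tfh5 and Th1 was the largest of the list (adjusted p = 2.3e-16). Malt1, a protease of antigen receptor signalling, rose 2.63-fold from TfhA to Tfh5 (522 ± 43.5 to 1373 ± 27.2 CPM, adjusted p = 6.46e-12). Inpp5d, the lipid phosphatase SHIP-1 that can dock to switch motifs in the absence of SAP, was lowest in TfhA, as Sh2d1a was, but highest in Tfh5 (104 ± 8.63 CPM in Th1, 72.8 ± 7.87 in TfhA and 161 ± 19.4 in Tfh5). It rose 2.21-fold from TfhA to Tfh5 (adjusted p = 1.27e-09). From Th1 to TfhA, Pag1 rose 1.72-fold, Vav1 1.57-fold and Rasa1 2.23-fold, while the adaptor Dok1 fell 1.86-fold (adjusted p = 2.33e-05, 1.24e-06, 1.58e-08 and 0.000186).

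Genes tied to SAP in T cell help formed a list of 12, of which 11 were tested. In Tfh5 against TfhA 7 rose and 4 fell, in TfhA against Th1 2 rose and 3 fell, and in Tfh5 against Th1 7 rose and 3 fell, so that 11, 5 and 10 of the 11 were called, beside 57.5%, 44.8% and 64.6% of all tested genes. The 5 of 11 between TfhA and Th1 are near that share. The medians were 0.43, 0.14 and 0.64, beside -0.01, 0.03 and -0.02 for all tested genes. The costimulatory ligand Cd40lg fell in the same order as Slamf7, from 328 ± 35.9 CPM in Th1 to 149.5 ± 29.98 in TfhA and 46.6 ± 3.41 in Tfh5 (3.21-fold from TfhA to Tfh5, adjusted p = 1.04e-11). Gata3 had its highest level in TfhA, as Slamf6 did (12.8 ± 2.17, 36.5 ± 6.16 and 20.03 ± 3.22 CPM). The members of the list that rose most in Tfh5, Cxcr5 and Bcl6, did not pass between TfhA and Th1, where Slamf6 and Cd84 rose.

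Several SLAM receptors are also made by B cells, NK cells and myeloid cells, so markers of these were measured beside them. The NK marker Ncr1 was at 0 in all libraries, and 8 NK markers summed to between 1.6 and 3.05 CPM in Th1, between 2.44 and 5.95 in TfhA and between 1.61 and 3.77 in Tfh5, where Slamf7 had 216.9, 102.6 and 6.48 CPM. The sum of 9 B cell markers lay between 26.4 and 34.5 CPM in Th1 and between 20.2 and 31.9 in TfhA, mostly from Ebf1 in both (29.3 and 17.2 CPM), and between 3.06 and 7.59 in Tfh5, where Ebf1 was at 0.526 CPM. Of the 7 that could be tested, 4 were higher and 1 lower in TfhA than in Th1, beside 23.2% and 21.6% of all tested genes. In Tfh5 against TfhA, 1 was higher and 5 were lower, beside 27.4% and 30.1%. Between Tfh5 and Th1, 1 was higher and 1 lower, beside 31.5% and 33%. Ms4a1 had 1 count over the Th1 libraries, 63 over those of TfhA and 1 over those of Tfh5. Of 11 markers of monocytes, macrophages and dendritic cells, Adgre1, Clec9a and Siglech were at 0 throughout, and the sum (158 to 216, 44.9 to 93.1 and 6.83 to 10.5 CPM) came mostly from Cd74. H2-Aa reached 6.99 ± 1.16 CPM in TfhA, against 0.361 ± 0.143 in Th1 and 0 counts in Tfh5. The γδ T cell gene Trdc was at 5.54 ± 1.49, 53.5 ± 19.3 and 11.8 ± 3.19 CPM, the same order of groups as Slamf6. The sum of 4 γδ and NKT cell markers, mostly Trdc, ran from 4.46 to 8.6, from 34.2 to 80.7 and from 8.07 to 15.8 CPM. Trgc1 was also lowest in Th1, at 0.122, 1.34 and 1.19 CPM. Between Tfh5 and TfhA it did not pass and the groups overlapped (log2 fold change -0.18 ± 0.43, adjusted p = 0.753). The remaining markers of this list did not have the order of Trdc, with Zbtb16 at 0.201, 0 and 0.175 CPM and Sox13 at 0.487, 0.191 and 0.0189 CPM. The 2 CD8 markers together had 12.2 to 34 CPM in the Th1 libraries, 8.81 to 22.4 in those of TfhA and 8.26 to 21.1 in those of Tfh5. Granulocyte, mast cell and platelet markers had 3 of 9 genes at 0 (Cpa3, Mcpt4 and Ppbp). The 9 summed to 128 to 190, 23.7 to 32.3 and 59.8 to 123 CPM, mostly Ly6g. Ly6g and Kit (10.25, 0.837 and 3.75 CPM) had the same order of groups as Sh2d1a. S100a8, S100a9 and Pf4 had 1, 2 and 1 counts over the Th1 libraries and none in TfhA or Tfh5. Itga2b was highest in Tfh5 (0.576, 0.537 and 1.36 CPM). The part of these cells in the levels of the members was not tested. Of 7 CD4 T cell markers, 5 were higher and none lower in Tfh5 than in TfhA (27.4% and 30.1% of all tested genes), 5 were higher and 1 lower, Cd4 itself, in TfhA than in Th1 (23.2% and 21.6%), and 7 were higher in Tfh5 than in Th1 (31.5%). The share of mitochondrial counts was 7.29% to 8.54% in the Tfh5 libraries, 4.07% to 7.01% in TfhA and 4.46% to 6.56% in Th1, and no call of a member changed when mitochondrially encoded genes were removed.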

How the data were processed

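The authors deposited raw counts per gene under Entrez identifiers for 14 libraries, made from 100 ng of RNA with a SENSE mRNA kit, per the labels' protocols. The submitters' processing notes name STAR 2.7.2b, featureCounts 1.6.4 and build mm10. For the annotation, the strand setting and multiply mapping reads, the settings were not given in the sources used. The series table was identical to the 14 files of single samples. Symbols came from the RefSeq table of GRCm38.p6 (25275 of 27179 genes; genes with no symbol held 1.91% of counts), lengths, strands and coding sequences from GENCODE M21, and promoters from RefSeq, where 5 of the 7 members matched.

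Counts entered one edgeR 4.0.16 fit (R 4.3.3, limma 3.58.1) with group means and no covariate, filterByExpr, TMM scaling and the two-sided quasi-likelihood F test, Benjamini-Hochberg adjusted over 13075 genes, with a threshold of 0.05. SEs were derived from the fold change and F (absolute log2 fold change over root F). Log2 CPM carry a prior count of 2. The fit was tested on simulated data. Replicates of a group differed by more than counting error (chi-square per degree of freedom 4.3 to 32.63), so no library was counted as a duplicate. Alternatives were RLE scaling, total-count scaling, DESeq2 1.42.0, no filter, only 2 groups per fit, replicate number as a block, no mitochondrial genes, and each library left out in turn.

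The members and lists were chosen with earlier results of these data known. Named are all members, up to 4 called genes per list and comparison with at least 5 CPM in a group, as far as they bear on the members, single markers of other cell types, and the 3 genes most like each member with at least 10 CPM. No protein sequences were used, and the switch motif was read from codons. Single values of 2 listed genes are not reported here.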

Additional observations from a re-analysis of the deposited data

Results flagged for a closer look

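No library of any member stood apart from its group in 21 checks of member and group (gap to the nearest library against the group's range, Dixon's 95% limit). Among 98 such checks over 33 genes, of which chance flags about 1 in 20, a single value stood apart: Cd40lg in Th1 replicate 1, at 265.8 CPM against 333 to 359 in the other 4 Th1 libraries. By chi-square per degree of freedom this library differed from the other Th1 libraries at 24.39 to 32.63, and those from each other at 4.3 to 10.36. It was also the lowest Th1 library for Slamf1, Slamf7, Cd48, Cd84 and Sh2d1a, but not for Slamf6 and Ly9.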

How the results depend on the processing

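The counts of members higher and lower held under all 21 alternatives within 1.5 times: the members lower in Tfh5 than in TfhA were 5 or 6 and those lower in TfhA than in Th1 were 2 or 3, and the other counts did not change. Leaving out 1 library in turn gave the same ranges (5 to 6 and 2 to 3). Slamf1 lost its call between TfhA and Th1 in 8 of 21 alternatives, including total-count scaling (log2 fold change -0.17 ± 0.08, adjusted p = 0.0996). With replicate number as a block it was -0.24 ± 0.10 (adjusted p = 0.0548), and the block changed no other call of a member. The replicate numbers gave no clear sign of pairing. Same-numbered libraries of different groups had deviations correlated at -0.048 to 0.155 over 13 pairs (median 0.025, beside -0.001 for other pairs). Of 14 libraries, 2 correlated best with their own number in every other group that held this number. The sign of the Cd48 difference between TfhA and Th1, which passed in no alternative, reversed without Th1 replicate 1 (-0.04) and without TfhA replicate 5 (-0.08), in a range of -0.08 to 0.12 with 1 library left out. The order of members by level per length stayed whole in 0 of 3 groups with the longest annotated transcript, and in 0 of 3 with the longest protein-coding transcript; the cause lies in the lengths, which alone differ. Total-count scaling, removal of mitochondrial genes and the protein-coding length were chosen after the data were seen. Counts of members were at least 62 in each library, so depth limited only the relatives near 0, such as Slamf9 and Sh2d1b1.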

Other observations

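Vangl2, a planar cell polarity protein, flanks the receptor cluster next to Slamf6. It went the other way from Slamf6 between TfhA and Tfh5. It was at 0.580 CPM in Th1, 0.637 in TfhA and 3.41 in Tfh5 on average, with a log2 fold change of 2.37 ± 0.43 from TfhA to Tfh5 (edgeR's quasi-likelihood test, adjusted p = 4.9e-05), where Slamf6 fell. Alyref2, at the other end of the window beyond Ly9, did not pass in that comparison (-0.37 ± 0.39, adjusted p = 0.442). Both genes had few counts, 257 for Vangl2 and 309 for Alyref2 over all libraries. Between Tfh5 and Th1, Vangl2 was higher in Tfh5 (2.54 ± 0.39, adjusted p = 4.09e-06 in the same test), as Slamf6 was (2.46 ± 0.12).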
